A study of Labrus bergylta with 77 samples.

Results

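The collagen genes of the ballan wrasse (Labrus bergylta) were followed in whole larvae from 4 to 80 days after hatching. Members were taken by name: a row of the expression table counted when its gene name began with col, a type number, the letter a and a chain number, whatever the case, and every copy was kept. Of 29932 rows, 109 matched. Of these, 2 are named COL4A3BP, a ceramide transfer protein and not a collagen, and were set apart, which left 107 collagen rows with 40 distinct names of 27 collagen types. By type number, 20 rows were placed with the fibrillar collagens of bone, skin and tendon (types I, V and XXIV). No row was named for type III, and 25 were placed with the cartilage collagens (types II, IX, X, XI and XXVII). Basement membrane and its anchoring (types IV, VII, XV and XVIII) had 12 rows, beaded filaments (type VI) 19, FACITs, which are fibril-associated collagens with interrupted triple helices other than type IX, 18, transmembrane collagens 5 and the remaining types 8.

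Collagens are built from 3 chains wound into a triple helix. Fibrillar types carry tensile load in bone, skin and tendon, type II with types IX and XI forms the fibrils of cartilage, and type X is the product of hypertrophic chondrocytes, although in teleosts it is also known from bone-forming cells. Type IV forms the network of basement membranes, type VII its anchoring fibrils and type XVII spans the membrane of basal keratinocytes at hemidesmosomes. Teleosts hold several copies of many collagen genes, left from genome duplication, and fish type I collagen is known to contain a further chain besides the pair found in mammals.

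The study followed how larvae develop and how the first feed affects this. Transcripts were quantified in 77 whole-larvae pools, with the number of larvae per pool not given, and stages were set by standard length. Unfed larvae (stage BW0, 5 pools, 4 days post hatch, dph, 4 mm) came from incubators and alone were extracted with TRIzol. All others came from 6 tanks with 2 pools per tank and stage: the control diet, rotifers and Artemia, went to B6, B8 and B10, while zooplankton, called plankton here, went to B5, B7 and B9. All larvae came from 1 group of brood stock, dry feed was first given at 40 dph beside the live feed, and from 56 dph all tanks had dry feed only. At BW2 both diets were sampled at 9 dph and 4.1 to 4.5 mm. Control and plankton tanks were sampled at 16 and 18 dph at BW3 (5.7 to 6.1 mm), at 26 and 28 dph at BW4 (7.1 to 7.4 mm) and at 36 and 41 dph at BW5 (10.1 to 10.6 mm), so that diet and age cannot be told apart at these stages. At BW5 only the plankton tanks were past the day of first dry feed, which cannot be told apart from diet either. At BW6 both diets were sampled at 58 to 59 dph (16.0 to 16.5 mm) and at BW7 at 79 to 80 dph (26.4 to 27.9 mm).

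Values are the deposited TPM, a transcript abundance whose values sum to 1000000 in each pool. They are scaled by transcript length, so levels can be set side by side between genes. Read depth is unknown, since TPM does not keep it. Some libraries stood apart: 9 pools correlated better with another group than with their own, among them the pool B5 R3 labelled BW2 plankton, which was closest to unfed BW0, and the pool B8 R3 labelled BW2 control, which was closest to BW3 plankton. Their collagen levels differed in the same way: the median collagen of B5 R3 was -0.54 (log2) from the BW0 mean, against -1.03 to -1.40 in the other plankton pools of BW2, and that of B8 R3 was -0.003 against -0.18 to -0.60 in the other control pools. Tests used log2(TPM + 1) averaged within a tank, in 1 limma fit with Benjamini-Hochberg adjustment over 22028 genes, and a gene was called at an adjusted p under 0.05. Of the 107 collagen rows 92 reached 1 TPM in at least 3 libraries and were tested. The 15 untested rows averaged at most 0.401 TPM, 10 of them are COL6A3 rows, and 1 was at 0 in every pool. The counts below cover the 92 tested rows, a set that can include rows that passed only because they were high in 1 group.

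The collagens together made up 0.524% of all TPM in unfed larvae and 2.04% at BW7. Summed collagen TPM was 5239 ± 494 (SD, n = 5 pools) at BW0 and 2920 ± 1151 (SD, n = 6 tanks) at BW2, the stage with the lowest levels. From there the mean was 6113 ± 710 at BW3, 8433 ± 769 at BW4, 11780 ± 1192 at BW5, 10160 ± 2600 at BW6 and 20380 ± 2008 at BW7. All 6 tanks at BW7 (18000 to 22690) lay above all tanks of every other stage. In whole larvae, fewer cells of a type and less RNA per cell cannot be told apart.

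The rise was carried mainly by type I. The COL1A1 and COL1A2 rows held 37.9% ± 1.91 (SD, n = 5 pools) of collagen TPM at BW0, 39.4% at BW2, 40.4% at BW3, 56.6% at BW4, 65.7% at BW5, 66.8% at BW6 and 70.1% ± 0.516 (SD, n = 6 tanks) at BW7. The fibrillar sum was 2297 TPM at BW0, 1325 at BW2 and 14660 ± 1397 at BW7. The cartilage sum was close to the fibrillar one in unfed larvae, at 2165 TPM. It lay between 2039 and 2346 at BW3 to BW6 and reached 4272 ± 522 at BW7. Col2a1 (LABE_00059853) held 17.3% of this sum at BW0 and 52.2% at BW7, and type X rows held 1.38% and 28.5%. The basement membrane sum was highest before feeding, with 271.7 ± 21.7 TPM at BW0, 154.9 ± 32.4 at BW2 and 223.6 ± 34.0 at BW3. It was 204.6 ± 18.8 at BW4, 173.5 ± 12.8 at BW5, 114.8 ± 20.6 at BW6 and 158.3 ± 6.78 at BW7. Most of the sum at BW0 was Col4a1 (LABE_00055518), at a mean of 182 TPM, and only 2 of the tested genes of this class were highest at BW0. The beaded filament sum was 253.4 TPM at BW0 and 863.9 at BW7, and that of the FACITs was 146.2 at BW0, 293.7 at BW5 and 272.8 at BW7. Transmembrane collagens reached 113.6 TPM at BW6, and the remaining types were highest at BW3 and BW4, at 97.7 and 97.6.

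**Figure D1:**
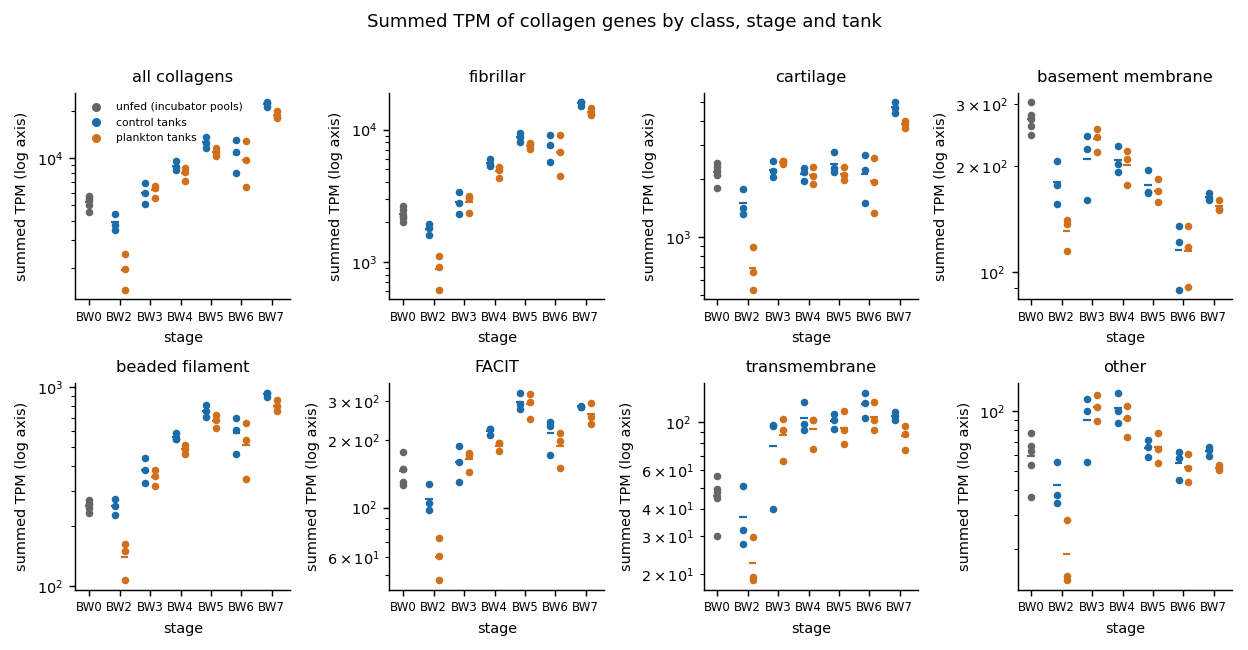
Summed TPM (log axis) of each collagen class by stage. Points are tanks (pools at BW0), bars are group means, grey is unfed, blue control and orange plankton. The fibrillar sum has a mean of 1325 TPM at BW2 and 14660 at BW7, while the basement membrane sum is highest at BW0 with 271.7.

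The stage of highest level differed between classes. Of the 92 tested collagens, 14 were highest at BW0, 1 at BW2, 12 at BW3, 11 at BW4, 26 at BW5, 4 at BW6 and 24 at BW7. Beaded filament genes were highest at BW7 in 7 of 9 and FACITs at BW5 in 9 of 17. Cartilage genes were spread over BW0 (5), BW3 (5), BW4 (2), BW5 (9) and BW7 (4). Basement membrane genes were spread over BW0 (2), BW3 (1), BW4 (1), BW5 (2) and BW7 (4). The COL6A3 rows LABE_00075367, LABE_00075368 and LABE_00094940, all highest at BW7, averaged 0.305 to 0.381 TPM and at most 0.066 at BW2. They passed the filter through stages where they were high, so their peak is no separate result. The share of all genes highest at each stage was not computed.

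**Figure D2:**
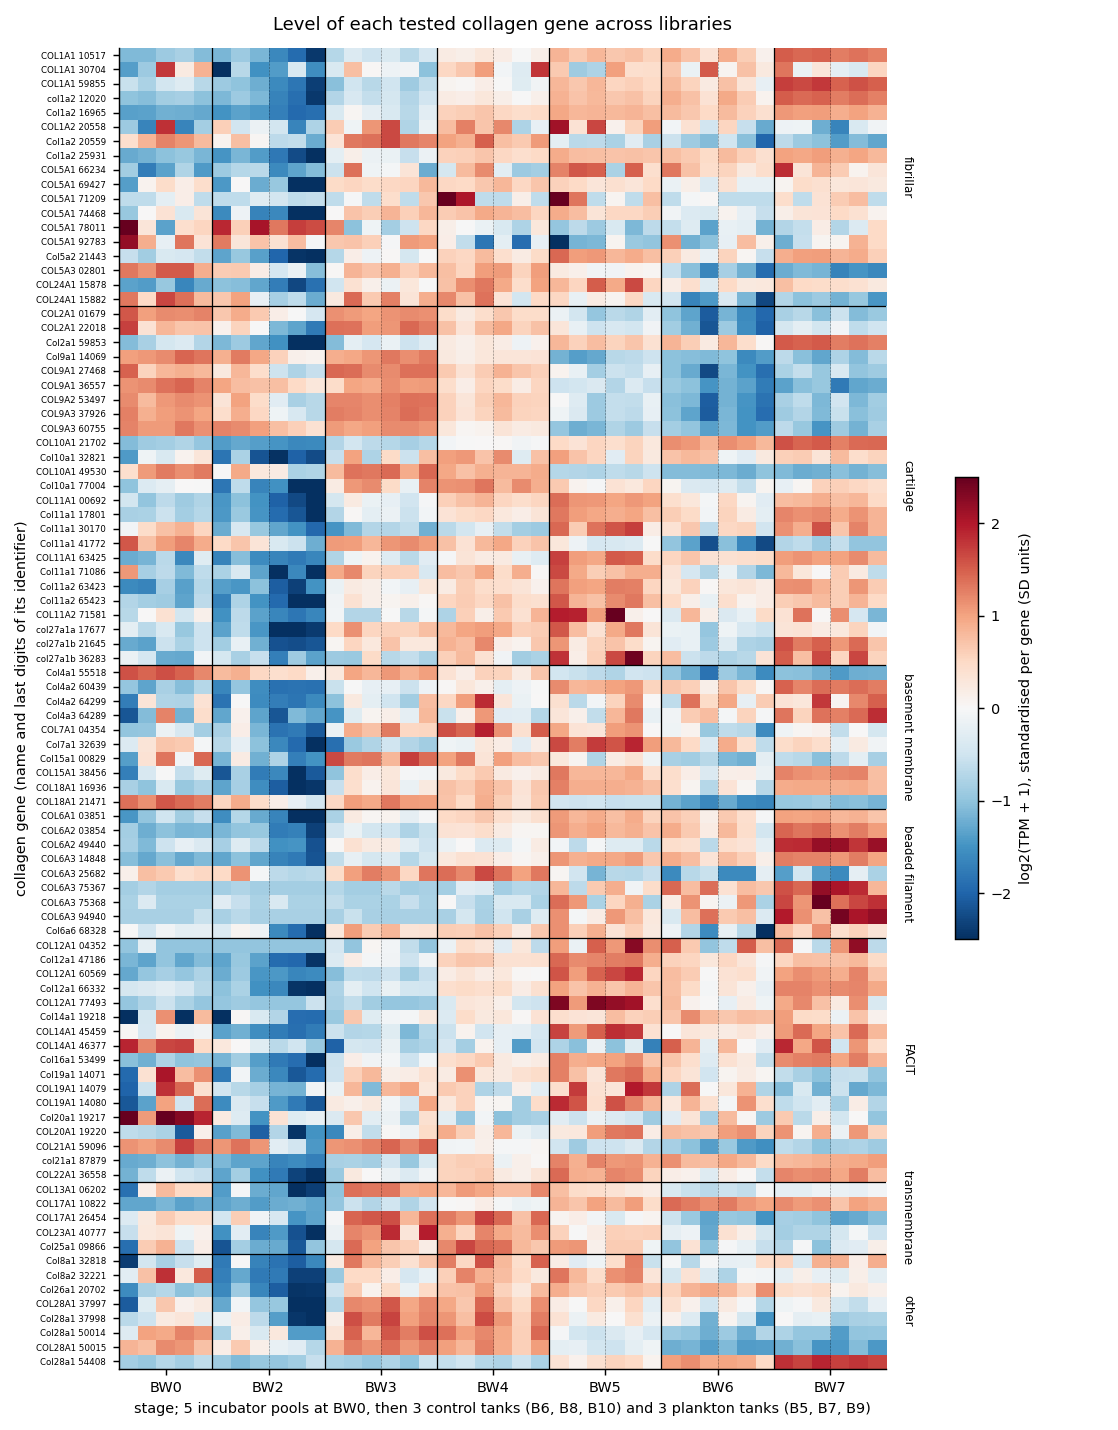
Level of the 92 tested collagens in 41 libraries (36 tank means and 5 unfed pools), as log2(TPM + 1) standardised per gene and given in SD units, ordered by class and stage. Of these genes 24 are highest at BW7 and 14 at BW0, and the plankton tanks at BW2 are low in most rows.

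From the first to the last fed stage (BW7 minus BW2, both diets with equal weight), 63 collagens rose and 18 fell, with a median of 1.02 on the log2 scale. Among all genes tested 34.7% rose and 38% fell, with a median of -0.03. By class, 11 of 18 fibrillar genes rose and 4 fell, 15 of 25 cartilage genes rose and 9 fell, 7 of 10 basement membrane genes rose and 2 fell, and 8 of 9 beaded filament genes rose and 1 fell. Of 17 FACITs 12 rose and 1 fell, of 5 transmembrane genes 4 rose, and of the 8 remaining genes 6 rose and 1 fell. The beaded filament genes that rose include COL6A3 LABE_00075367, LABE_00075368 and LABE_00094940, which passed the filter through their late levels.

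Among the fibrillar genes, COL1A1 (LABE_00059855), an alpha 1 chain of type I, was the highest collagen. It was at 1074 to 1495 TPM in the 5 unfed pools, at 354 to 995 (median 698) over the 6 tanks at BW2 and at 5423 to 6657 (median 6025) at BW7. No tank at BW7 came near the earlier range, and the gene rose by 3.19 ± 0.13 (log2, SE, n = 6 tanks against 6, adjusted p = 5.94e-20). A second COL1A1 copy (LABE_00010517) was at 71.1 to 334 TPM at BW2 and at 2944 to 3846 at BW7, a rise of 4.27 ± 0.16. The alpha 2 chain gene col1a2 (LABE_00012020) was at 79.4 to 341 TPM at BW2 and at 2747 to 3557 at BW7, a rise of 4.07 ± 0.15. Another copy, Col1a2 (LABE_00025931), started lower, at 9.09 to 75.1 TPM at BW2 against 63.4 to 98.8 in unfed larvae. It rose by 3.32 ± 0.19 from BW2 to BW3 alone and stood at 1273 to 1770 TPM at BW7. Col1a2 (LABE_00016965) had the same shape at a lower level, from a median of 2.19 TPM at BW2 to 145 at BW7, a rise of 5.57 ± 0.14.

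Type V collagen nucleates type I fibrils and sets their width. Col5a2 (LABE_00021443) had medians of 130 TPM at BW0, 82.4 at BW2, 254 at BW5 and 247 at BW7, and rose by 1.69 ± 0.10 from BW2 to BW7. COL5A1 (LABE_00069427) and COL5A1 (LABE_00074468) had low values at BW2, with medians of 12.2 and 10.1 TPM, against 76.7 and 59.9 at BW3. Both rose from BW2 to BW3, by 3.82 ± 0.39 and 2.91 ± 0.23. Another row, COL5A1 (LABE_00078011), fell by 2.59 ± 0.60 in that step, from a median of 21.03 TPM to 1.90. In unfed larvae that row was at 68.0 TPM in pool R3 and at 0 to 5.76 in the other 4, while LABE_00069427 was at 11.7 in R3 and at 50.5 to 72.3 in the others. One row was thus high where the other was low within 1 group, and how reads were shared among them by the authors' counting was not tested.

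In the cartilage class, type X made up 1.38% of the class's TPM in unfed larvae, 0.699% at BW2, 1.69% at BW3, 3.2% at BW4, 5.9% at BW5, 23.3% at BW6 and 28.5% at BW7. Type IX had the reverse course, with 35.7%, 37.2%, 33.8%, 19.1%, 7.21%, 3.48% and 2.72%. From BW5 on nearly all of the type X signal was 1 gene, COL10A1 (LABE_00021702). Its lowest, median and highest tank values were 0.159, 0.722 and 1.40 TPM at BW2, then 5.58, 7.85 and 14.8 at BW3 and 35.1, 42.2 and 45.6 at BW4. They were 81.1, 125 and 158 at BW5, 274, 504 and 622 at BW6, and 784, 1174 and 1663 at BW7. The ranges of successive stages did not overlap at any of the 5 steps, each step was called, and the whole rise was 9.50 ± 0.21 on the log2(TPM + 1) scale (adjusted p = 3.23e-27), the largest among the 92 collagens. The copies Col10a1 (LABE_00032821) and Col10a1 (LABE_00077004) had medians of 3.64 and 3.65 TPM at BW0, near the 4.92 of LABE_00021702, and rose far less from BW2 to BW7, by 1.64 ± 0.20 and 1.49 ± 0.15. COL10A1 (LABE_00049530), at a median of 18.8 TPM at BW0, was the 1 row of this name that fell: its median was 23.2 TPM at BW3, 13.03 at BW4, 1.22 at BW5 and 0.319 at BW7, a fall of 1.76 ± 0.24 from BW2 to BW7. Bone markers other than collagens had summed TPM of 42.2 and 37.5 at BW2 and of 1417 and 1215 at BW7 in control and plankton tanks. Against 34.7% of all genes, 8 of 8 of these markers rose from BW2 to BW7, with a median of 2.41 (log2). Among them bglap (LABE_00062405), the osteocalcin gene of bone matrix, rose by 9.71 ± 0.30. In the late steps the list was mixed, with 3 higher and 2 lower from BW5 to BW6 and 4 higher and 1 lower from BW6 to BW7. Of all genes 18.1% rose and 24.4% fell from BW5 to BW6, and 11.6% and 25.4% from BW6 to BW7. The part of bone cells or of hypertrophic cartilage in the COL10A1 values was not tested.

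Type IX collagen decorates the surface of type II fibrils. COL9A1 (LABE_00036557), an alpha 1 chain, was at 127 to 197 TPM in unfed larvae, at 50.9 to 135 (median 109) at BW3 and at 1.57 to 6.79 (median 4.05) at BW7, a fall of 3.80 ± 0.23 from BW2 to BW7. COL9A3 (LABE_00060755), an alpha 3 chain, fell by 3.49 ± 0.18, and Col9a1 (LABE_00014069) fell by 2.61 ± 0.16. Both had most of this fall between BW3 and BW5, where the medians of COL9A3 (LABE_00060755) went from 92.0 to 29.7 to 5.70 TPM. COL9A1 (LABE_00027468), COL9A2 (LABE_00053497) and COL9A3 (LABE_00037926) fell less, by 0.74 ± 0.19, 0.91 ± 0.18 and 1.12 ± 0.17.

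The rows named for the type II alpha 1 chain, the bulk collagen of cartilage, parted. Col2a1 (LABE_00059853) was at 254 to 486 TPM in unfed larvae, 71.8 to 297 at BW2 and 1957 to 2488 at BW7, and rose by 3.90 ± 0.19 from BW2 to BW7. COL2A1 (LABE_00001679) was at 355 to 567 TPM in unfed larvae, 99.2 to 328 at BW2, 342 to 409 at BW3 and 54.4 to 89.1 at BW7, and fell by 1.49 ± 0.19. For COL2A1 (LABE_00022018) the difference was 0.20 ± 0.16 (adjusted p = 0.274), with medians of 263 TPM at BW3 and 103 at BW7. Col2a1 (LABE_00059853) thus held 17.3% of cartilage collagen TPM at BW0 and 52.2% at BW7. Its level followed the type I genes more closely than the other type II rows: its ratio to COL1A1 (LABE_00010517) had medians of 0.910 at BW2, 0.752 at BW4, 0.664 at BW5 and 0.661 at BW7, while its ratio to COL2A1 (LABE_00001679) had medians of 0.862, 3.49, 12.2 and 33.5. Whether the name given to this row in the table fits its sequence was not tested. With type X at 28.5%, the cartilage sum at BW7 was largely this row and COL10A1 (LABE_00021702).

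Type XI collagen, which lies within cartilage fibrils, mostly rose. Of the tested COL11A1 rows 5 rose and 1 fell from BW2 to BW7. Col11a2 (LABE_00063423, LABE_00065423) and COL11A2 (LABE_00071581) rose by 3.44, 2.92 and 0.51. COL11A1 (LABE_00000692) and Col11a1 (LABE_00017801) were at medians of 32.3 and 38.0 TPM at BW2 and of 156 and 186 at BW7, and rose by 2.32 ± 0.12 and 2.31 ± 0.12. Col11a1 (LABE_00041772) had a median of 83.8 TPM at BW2, 156 at BW3 and 51.4 at BW7, and fell by 0.58 ± 0.16. Markers of cartilage other than collagens moved in both directions over the same span, with 5 of 12 higher and 6 lower. Of all genes 34.7% rose and 38% fell. The summed TPM of these markers in control and plankton tanks was 413.3 and 223.0 at BW2, and 618.6 and 647.1 at BW3. It was 268.8 and 263.3 at BW7. HAPLN1 (LABE_00005192), a link protein of the proteoglycan matrix, rose by 2.37 ± 0.17, and Matn4 (LABE_00071554), a matrilin, fell by 0.99 ± 0.13.

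Among basement membrane genes, Col4a1 (LABE_00055518) and Col4a2 (LABE_00060439), whose products join in the same trimer in other vertebrates, moved apart. Col4a1 was at 154 to 198 TPM in unfed larvae, 79.6 to 128 at BW2, 46.1 to 55.8 at BW5 and 30.5 to 39.0 at BW7, and fell by 1.51 ± 0.12 from BW2 to BW7. Col4a2 was at 12.1 to 16.7 TPM in unfed larvae, 8.93 to 14.7 at BW2, 32.4 to 44.7 at BW5 and 45.7 to 51.7 at BW7, and rose by 2.14 ± 0.10. By BW7 all 6 tanks had more Col4a2 than Col4a1, the reverse of every earlier fed stage but BW6, where the ranges met. The copies of COL18A1, the source of endostatin, crossed likewise: LABE_00016936 had medians of 9.29 TPM at BW2 and 38.9 at BW7 and rose by 1.99 ± 0.13, while LABE_00021471 had 23.8 and 10.9 and fell by 0.99 ± 0.09. Col7a1 (LABE_00032639), the anchoring fibril chain of skin, was highest at BW5, with a median of 11.7 TPM against 2.58 at BW2 and 6.26 at BW7.

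COL17A1, the hemidesmosome collagen of skin, had a pair of copies with different courses. COL17A1 (LABE_00010822) did not differ between BW0 and BW2 past the threshold (-0.02 ± 0.12), had medians of 7.77 TPM at BW2, 63.97 at BW5, 95.8 at BW6 and 79.3 at BW7, and rose by 3.15 ± 0.12 from BW2 to BW7. COL17A1 (LABE_00026454) peaked at BW3 and BW4 with medians of 56.8 and 54.8 TPM and was back at 8.55 at BW7, with a difference from BW2 of -0.44 ± 0.25 (adjusted p = 0.111). Against 34.7% of all genes, epidermal markers rose in 12 of 13 from BW2 to BW7. Their summed TPM was 109.4 (control) and 110.3 (plankton) at BW2, 326.4 and 275.3 at BW6, and 254.4 and 219.8 at BW7. From BW6 to BW7 0 of these markers were higher and 7 lower, against 11.6% and 25.4% of all genes. Their part in the COL17A1 values was not tested.

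Of the beaded filament genes, COL6A2 (LABE_00003854), an alpha 2 chain of the type VI filaments around cells, was the highest, at 76.5 to 165 TPM at BW2 and 497 to 626 at BW7, and rose by 2.20 ± 0.11. COL6A1 (LABE_00003851), the alpha 1 chain, was at 6.98 to 41.8 TPM at BW2 and 126 to 162 at BW7, a rise of 3.14 ± 0.18. COL6A3 (LABE_00025682) was the 1 row of the class that fell from BW2 to BW7, by 0.95 ± 0.26. Its median was 7.72 TPM at BW4 and 0.497 at BW7. Among the FACITs, Col12a1 (LABE_00047186 and LABE_00066332), of tendon and dense connective tissue, had medians of 12.3 and 10.7 TPM at BW2 and of 62.5 and 60.7 at BW7, and rose by 2.26 ± 0.11 and 2.58 ± 0.15. COL21A1 again held a crossing pair: LABE_00059096 had a median of 25.1 TPM at BW3 and 7.12 at BW7 and fell by 0.81 ± 0.12 from BW2, and col21a1 (LABE_00087879) went from 0.361 at BW2 to 10.8 at BW7 and rose by 3.12 ± 0.12. COL14A1 (LABE_00046377) stayed within medians of 14.4 and 26.7 TPM over all stages. Of the remaining types, Col28a1 (LABE_00054408) was at 0.376 to 1.07 TPM at BW2 and 10.6 to 12.7 at BW7, a rise of 2.94 ± 0.11 made in the last 3 steps.

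Copies called in opposite directions from BW2 to BW7 were found for 10 of the 24 names with at least 2 tested copies: COL10A1, COL11A1, COL18A1, COL1A2, COL21A1, COL24A1, COL28A1, COL2A1, COL5A1 and COL6A3. Over this span 34.7% of all genes rose and 38% fell. The share of other gene names with copies called in opposite directions was not computed, so the 10 are not read against it. Reads of near-identical copies can be divided between them by the counting, and this was not tested.

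**Figure D3:**
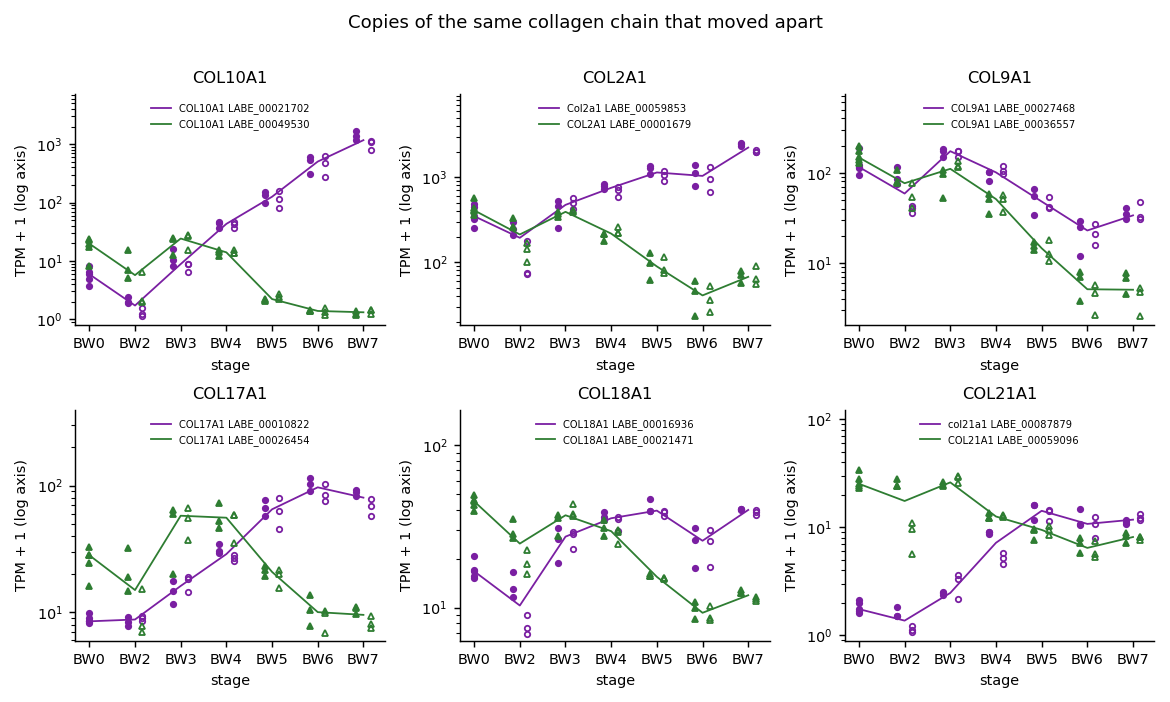
TPM + 1 (log axis) by stage for 1 pair of copies each of COL10A1, COL2A1, COL9A1, COL17A1, COL18A1 and COL21A1, named with their identifiers. Other tested copies of COL10A1, COL2A1 and COL9A1 are not shown. Filled points are unfed pools and control tanks, open points plankton tanks, and lines join stage medians. COL10A1 LABE_00021702 goes from a median of 0.722 TPM at BW2 to 1174 at BW7, while LABE_00049530 goes from 4.71 to 0.319.

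Ratios within a tank show whether genes of 1 molecule or 1 name kept step. The log2 ratios tested used TPM + 1, while the medians given are ratios of plain TPM. For 35 pairs the log2 ratio at BW7 was set against that at BW2 in the same tank, with an exact two-sided sign-flip test over the 6 tanks, whose smallest possible p is 0.03125 (0.04375 adjusted over the 35). It was at its smallest for 25 pairs, among them 20 of 25 pairs of copies. Several pairs share a gene and are not independent. The share of other gene pairs that reach the smallest p was not computed, so these counts are not read against it. The ratio of Col4a1 to Col4a2 had medians of 13.2 at BW0, 10.1 at BW2, 5.82 at BW3, 3.87 at BW4, 1.28 at BW5, 1.15 at BW6 and 0.727 at BW7. It was lower in 6 of 6 tanks, with a log2 change of -3.66 ± 0.26 (SD, n = 6 tanks, exact p = 0.03125). For COL10A1 the ratio of LABE_00021702 to LABE_00049530 had medians of 0.161 at BW2, 3.14 at BW4, 98.6 at BW5 and 4336 at BW7, the last over a denominator of at most 0.4664 TPM. The COL18A1 ratio (LABE_00016936 to LABE_00021471) had medians of 0.419 at BW2 and 3.55 at BW7, and that of COL17A1 (LABE_00010822 to LABE_00026454) had 0.552 and 8.81.

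Of the type I genes, 1 pair changed little in ratio and others changed more. The ratio of COL1A1 (LABE_00010517) to col1a2 (LABE_00012020) had medians of 0.934 at BW0, 0.941 at BW2, 1.05 at BW3, 1.03 at BW4 to BW6 and 1.08 at BW7. While the genes rose by 4.27 and 4.07 on the log2 scale, the ratio changed by 0.20 ± 0.05 (SD, 6 of 6 tanks higher, exact p = 0.03125). The ratio of the highest collagen, COL1A1 (LABE_00059855), to the same col1a2 had medians of 3.86 at BW0, 3.66 at BW2, 2.43 at BW3, 1.69 at BW6 and 1.91 at BW7. It was lower in 6 of 6 tanks, with a log2 change of -0.88 ± 0.28 (SD, exact p = 0.03125). The copies col1a2 (LABE_00012020) and Col1a2 (LABE_00025931) also parted, with a ratio of 5.85 at BW2 and 1.99 at BW7 (-1.65 ± 0.34, lower in 6 of 6 tanks). The ratio of the chain genes COL9A3 (LABE_00037926) to COL9A2 (LABE_00053497) had medians between 0.569 and 0.638 at every stage, and its change missed the threshold (exact p = 0.09375). COL9A1 (LABE_00027468) to COL9A2 (LABE_00053497) had medians of 0.610 at BW0, 0.736 at BW2, 0.849 at BW5 and 0.859 at BW7, higher in 5 of 6 tanks from BW2 to BW7 (0.17 ± 0.21, exact p = 0.125). COL6A1 (LABE_00003851) to COL6A2 (LABE_00003854) had medians of 0.248 in unfed larvae, 0.153 at BW2, 0.345 at BW3 and 0.259 at BW7.

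**Figure D4:**
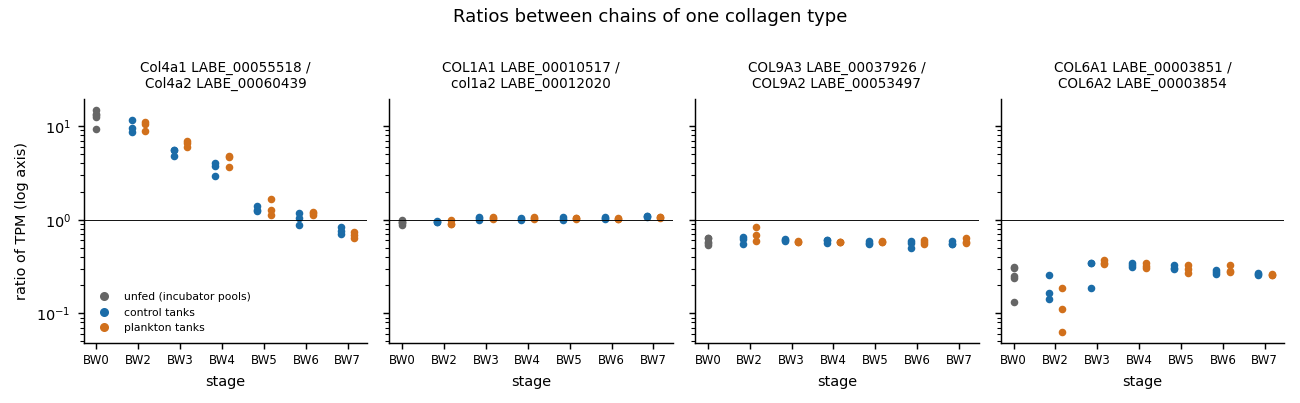
TPM ratios (log axis) by stage for COL4A1 to COL4A2, COL1A1 to COL1A2, COL9A3 to COL9A2 and COL6A1 to COL6A2. Points are tanks (pools at BW0) and the horizontal line marks equal TPM. The type IV ratio falls from 10.1 at BW2 to 0.727 at BW7, while the ratio of COL1A1 LABE_00010517 to col1a2 LABE_00012020 stays between medians of 0.934 and 1.08.

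The steps between stages locate these changes. Each step shares libraries with the next, and the counts are therefore not independent. The level of all genes moved as well: their median log2 difference was -0.37 from BW0 to BW2, 0.42 from BW2 to BW3, -0.12 from BW3 to BW4, -0.22 from BW4 to BW5, -0.08 from BW5 to BW6 and -0.10 from BW6 to BW7, and it was 0.02 or less in size at each step once libraries were scaled by size factors. The collagen medians for the same steps were -0.78, 0.98, 0.19, 0.18, -0.50 and 0.39.

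From unfed BW0 to BW2, 0 collagens rose and 72 fell, against 3.8% and 59.4% of all genes. COL5A1 (LABE_00069427) fell most, by 3.00 ± 0.41, and Col8a2 (LABE_00032221), a short-chain collagen, fell by 2.05 ± 0.22, from a median of 5.30 TPM to 0.714. With size factors 2 rose and 41 fell, against 4758 and 4762 of 22021 genes. Extraction reagent, tank and feed all differ in this step and cannot be told apart. From BW2 to BW3, 76 rose and 1 fell, against 63.3% and 5.45% of all genes. With size factors 58 rose and 3 fell, against 6538 and 6375 of 22021 genes. In this step 23 of 25 cartilage genes and 9 of 10 basement membrane genes rose, or 17 of 25 and 5 of 11 with size factors.

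From BW3 to BW4, 27 collagens rose and 12 fell, against 6.26% and 22.8% of all genes. The cartilage class divided, with 5 rising and 8 falling, and COL9A3 (LABE_00060755) fell by 1.66 ± 0.18 while COL10A1 (LABE_00021702) rose by 2.18 ± 0.21. From BW4 to BW5, 39 rose and 24 fell, against 10.6% and 39.1%, so that 61.9% of the calls were higher. With size factors 74.1% were higher (43 higher, 15 lower), beside 58.8% of the calls over all genes (4796 higher, 3356 lower). Of the 17 FACITs 11 rose and 1 fell, and of the 25 cartilage genes 10 rose and 11 fell. COL11A1 (LABE_00063425) rose by 1.75 ± 0.28, from a median of 9.40 TPM to 34.4.

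From BW5 to BW6, across the change to dry feed alone, 5 collagens rose and 57 fell, against 18.1% and 24.4% of all genes. Of 25 cartilage genes 22 fell, COL9A1 (LABE_00036557) by 1.51 ± 0.23 and COL2A1 (LABE_00001679) by 1.24 ± 0.19, and 8 of 10 basement membrane genes fell. COL10A1 (LABE_00021702), Col28a1 (LABE_00054408), COL17A1 (LABE_00010822) and COL14A1 (LABE_00046377) rose, by 1.88 ± 0.21, 0.64 ± 0.11, 0.56 ± 0.12 and 0.42 ± 0.12. Of the type I rows, Col1a2 (LABE_00016965) fell by 0.50 ± 0.14 (adjusted p = 0.0057), and the others were not called, with -0.29 ± 0.13 for COL1A1 (LABE_00059855), adjusted p = 0.0758. From BW6 to BW7, 47 rose and 2 fell, against 11.6% and 25.4%. The beaded filament genes tested again include COL6A3 rows that averaged under 1 TPM. In this step 19 of 25 cartilage genes and 8 of 9 beaded filament genes rose, COL1A1 (LABE_00059855) by 1.28 ± 0.13 and COL6A2 (LABE_00049440) by 1.18 ± 0.12, while COL17A1 (LABE_00010822) fell by 0.29 ± 0.12, a call lost with size factors (-0.15, adjusted p = 0.34) and without tank B5, B6, B8 or B10. Proliferation markers were lower in 11 of 11 from BW4 to BW5 and from BW5 to BW6 and higher in 11 of 11 from BW6 to BW7, and their part in the collagen values was not tested.

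Tanks differed most at BW6. The median SD between tanks per collagen there was 0.303 in control and 0.292 in plankton tanks (log2), against 0.111 and 0.173 at BW7. Other stages lay between or near these, with 0.256 and 0.243 at BW2, 0.266 and 0.173 at BW3, and 0.204 and 0.213 at BW5. Between the pools of 1 tank the median SD was 0.219 and 0.213 at BW6, and 0.139 and 0.168 at BW7. The spread over all genes was not computed. Summed collagen TPM at BW6 was 12980 in B6, 10960 in B8, 12800 in B5 and 9682 in B7, and was lower in B10 (8022) and B9 (6500). Those last tanks were the ones sampled at 59 dph rather than 58. They lay below all 4 tanks of 58 dph in 51 of 92 collagens and above them in 3, with a median difference of -0.37. Single pools overlapped in summed TPM: B10 R1 of 59 dph had 9569, above B8 R1 (8093) and B7 R2 (8969) of 58 dph. At BW7 tanks of 80 dph lay below all tanks of 79 dph in 4 genes and above in 1. The share of all genes that parted in this way was not computed for either stage. Sampling day and tank cannot be told apart.

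The diets parted at BW2, after the first days of feeding at equal age. Summed collagen TPM was 3775, 4424 and 3475 in control tanks B6, B8 and B10 and 2440, 1957 and 1448 in plankton tanks B5, B7 and B9. Every plankton tank was below every control tank, the ratio of means was 0.501, and the exact two-sided permutation p was 0.1, the smallest that 3 against 3 tanks can give (0.3 adjusted over 6 stages). Control tanks were at 4.2 to 4.5 mm and plankton tanks at 4.1 to 4.3 mm. In the gene-wise fit 0 collagens were higher and 52 of 92 lower in plankton tanks, against 9.49% and 19.7% of all genes, with a median of -0.69 for collagens and -0.10 for all genes. With size factors, which bring the median of all genes to 0.002, 49 collagens were called, all lower. Of 22021 genes 4223 were then higher and 3679 lower.

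Among the classes, 18 of 25 cartilage genes, 12 of 18 fibrillar, 6 of 9 beaded filament, 6 of 17 FACITs, 4 of 10 basement membrane, 2 of 5 transmembrane and 4 of 8 remaining genes were lower. Col1a2 (LABE_00025931) was at 45.7, 75.1 and 51.6 TPM in the control tanks (B6, B8, B10) and at 28.8, 14.3 and 9.09 in the plankton tanks (B5, B7, B9), a difference of -1.78 ± 0.27 (adjusted p = 8.53e-06). The groups did not overlap, and B5, which holds the pool closest to BW0, was the highest plankton tank. COL21A1 (LABE_00059096) was at 23.1, 26.7 and 23.1 TPM against 9.96, 8.64 and 4.60, a difference of -1.66 ± 0.17 (adjusted p = 6.74e-08), the smallest p among the 92 collagens. COL6A1 (LABE_00003851) was at 21.3, 41.8 and 26.9 TPM against 19.7, 6.98 and 8.45, a difference of -1.53 ± 0.26 (adjusted p = 3.66e-05). COL1A1 (LABE_00010517) was at 263, 334 and 260 TPM against 162, 118 and 71.1, a difference of -1.38 ± 0.23 (adjusted p = 3.94e-05). In all 4 genes B8, which holds the pool closest to BW3, was the highest control tank and B5 the highest plankton tank. Without those pools 55 collagens were called, among them all 52.

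The largest difference was that of COL5A1 (LABE_00069427), -2.69 ± 0.56 (adjusted p = 0.000424), but its groups overlapped: control tanks were at 10.97, 46.5 and 13.5 TPM and plankton tanks at 18.2, 0 and 1.16. With only the BW2 groups in the fit its adjusted p was 0.053. Within the cartilage class Col9a1 (LABE_00014069) was at 60.1, 96.7 and 66.3 TPM against 40.6, 23.8 and 22.6 (-1.53 ± 0.23, adjusted p = 6.93e-06), and Col2a1 (LABE_00059853) at 244, 297 and 209 against 176, 73.3 and 71.8 (-1.41 ± 0.26, adjusted p = 0.000148). The skin collagen COL17A1 (LABE_00010822) was not called, with 7.38, 8.20 and 6.77 TPM in control tanks and 8.05, 8.36 and 7.495 in plankton tanks (0.08 ± 0.16, adjusted p = 0.771). Its other copy, LABE_00026454, was lower in plankton tanks (-1.42 ± 0.35, adjusted p = 0.00244), with an adjusted p of 0.0511 without B8. Col4a1 (-0.33 ± 0.17) and Col4a2 (-0.35 ± 0.14) missed the threshold, at adjusted p of 0.134 and 0.0535.

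Genes that make, modify and bind collagen were looked up alongside. At BW2 9.49% of all genes were higher and 19.7% lower in plankton tanks. Of 54 tested genes of collagen synthesis and processing, 0 were higher and 29 lower, with a median of -0.51. They include P3h1 (LABE_00013841), a prolyl 3-hydroxylase (-1.53 ± 0.20), Serpinh1 (LABE_00033740), the collagen chaperone Hsp47 (-1.51 ± 0.20), Fkbp10 (LABE_00066415), a prolyl isomerase of the endoplasmic reticulum (-1.41 ± 0.18), and LOX (LABE_00008771), which cross-links fibrils (-1.15 ± 0.16). Of 13 collagen receptor genes 6 were lower, among them ITGB1 (LABE_00032132), the integrin beta 1 chain (-0.88 ± 0.23). Of 12 cartilage markers other than collagens 7 were lower, Matn4 (LABE_00077851) at -1.76 ± 0.24 and Acan (LABE_00021352), the aggrecan gene, at -1.12 ± 0.24. Of 8 bone markers 1 was lower, of 13 epidermal markers 2 were higher, and of 11 proliferation markers 11 were lower, with summed TPM of 498.0 to 693.9 in control and 141.3 to 273.8 in plankton tanks. The bone and epidermal counts lay near the shares of all genes and are not read as a result. The part of these lists in the collagen difference was not tested. Over the fed stages (BW7 minus BW2) 43 of 54 processing genes were higher and 3 lower, against 34.7% and 38% of all genes, LOXL4 (LABE_00055870), a lysyl oxidase, by 5.13 ± 0.13 and LOX (LABE_00008771) by 4.07 ± 0.11.

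Set against unfed larvae, the control tanks at BW2 had 0 collagens higher and 38 lower (all genes 4.4% and 43.7%), and the plankton tanks 0 higher and 75 lower (4.86% and 56.9%). Both comparisons use the same 5 unfed pools. The collagen medians were -0.39 and -1.16, beside -0.32 and -0.43 for all genes. The count for control tanks was 11 of 93 with size factors (1 higher, 10 lower, median -0.08), against 3507 higher and 3453 lower of 22021 genes. It was 12 without tank B10 and 18 without B6. For plankton tanks it was 55 with size factors (1 higher, 54 lower), against 5387 higher and 5234 lower of 22021 genes.

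From BW3 on few collagens differed between the diets. No collagen was called at BW3, BW6 or BW7, where 0.281%, 0.804% and 0.0863% of all genes were called. The collagen medians at BW4 and BW5 were -0.16 and -0.07, beside -0.05 and 0.03 for all genes. At BW3, BW6 and BW7 they were 0.06, -0.10 and -0.11, beside 0.002, 0.03 and 0.02 for all genes. At an unadjusted p under 0.05 limma gave 2, 3 and 4 of the 92 at these stages. At BW4 (0.667% of all genes called) 1 was lower in plankton tanks, col21a1 (LABE_00087879), with 3.52, 4.74 and 4.24 TPM in B5, B7 and B9 against 7.61, 8.02 and 7.94 in B6, B8 and B10 (-0.80 ± 0.17, adjusted p = 0.0108). At BW5 (0.3% called) 1 was higher, Col9a1 (LABE_00014069), with 8.33, 8.89 and 10.7 TPM against 4.29, 3.18 and 3.70 (1.13 ± 0.23, adjusted p = 0.0128). In both genes the groups did not overlap, but diet goes with an age gap at these stages. At BW5 it also goes with dry feed, first given at 40 dph, between the control (36 dph) and plankton (41 dph) samplings. Neither call held when some single tanks were left out. That of col21a1 was lost without B5, B6, B8 or B10 (adjusted p = 0.0515 to 0.136), and that of Col9a1 without B7, B8, B9 or B10 (adjusted p = 0.0522 to 0.156). At BW7 the summed collagen TPM was 18220, 20020 and 18000 in plankton tanks and 22690, 21000 and 22380 in control tanks, with no overlap, a ratio of 0.851 and an exact permutation p of 0.1 (0.3 adjusted). Within sampling days at BW7 the median difference (log2, plankton minus control) was -0.07 at 79 dph and -0.20 at 80 dph. At BW6 it was -0.10 at 58 dph and -0.09 at 59 dph, each from 1 or 2 tanks a diet. Of the 92 collagens 71 were lower at 58 dph, 56 at 59 dph, 60 at 79 dph and 71 at 80 dph. The share of all genes was not computed.

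**Figure D5:**
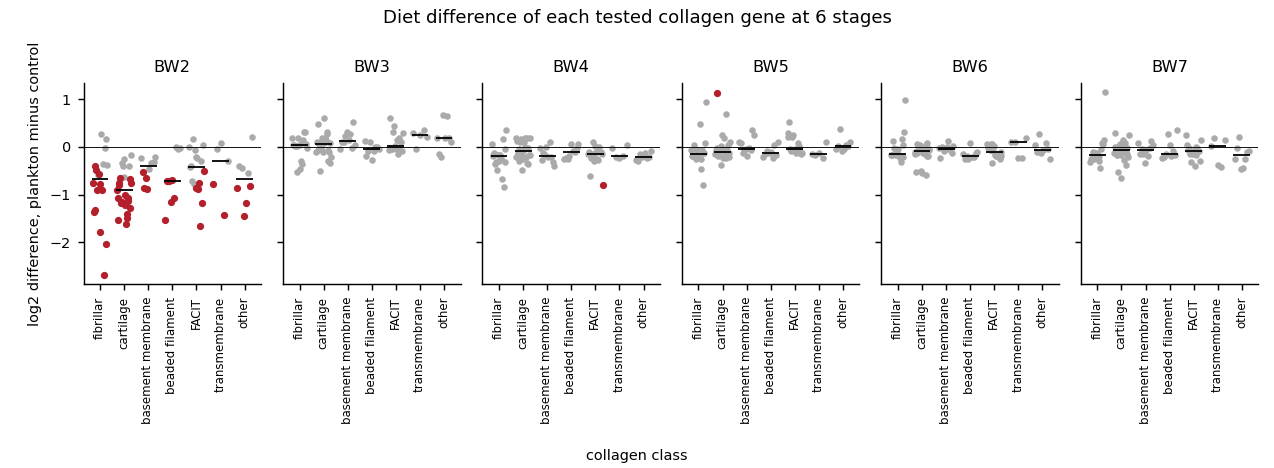
Log2 difference, plankton minus control, of each tested collagen by class at the 6 fed stages, with called genes in red and a bar at the class median. At BW2 52 of 92 are called, all lower. The collagen median is 0.06 at BW3, -0.16 at BW4, -0.07 at BW5, -0.10 at BW6 and -0.11 at BW7, with 1 called at BW4 and 1 at BW5.

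Whether the diet difference itself changed between stages was tested with an F test over the 6 fed stages. It was called for 20 of 92 collagens, against 10.6% of all genes. With size factors it was called for 14 of 93 collagens, against 3557 of 22021 genes, so the collagen share was then no higher. The number was 2 to 13 when 1 tank was left out, with 2 without B8. The smallest adjusted p values were those of Col9a1 (LABE_00014069, 5.84e-05) and COL21A1 (LABE_00059096, 6.97e-05). The diet difference of COL21A1 was -1.66 at BW2 and lay between -0.19 and 0.19 at the later stages, while that of Col9a1 was -1.53 at BW2 and 1.13 at BW5. The mean diet difference at BW6 and BW7 against that at BW2 to BW5 was called for 0 collagens, against 0.159% of all genes, with 4 of 92 at an unadjusted p under 0.05. The 2 COL4A3BP rows, which are no collagens, were at 0.66 ± 0.17 (LABE_00044928, adjusted p = 0.00326) and -0.23 (LABE_00048973) at BW2.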

How the data were processed

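The 77 libraries were made from whole larvae with oligo(dT) beads, per the labels' protocols. The deposited values are TPM per gene, made by the authors, and each column sums to 1000000. Salmon and edgeR are the tools listed per the submitters' processing notes. For versions, options and transcriptome, nothing is given in the sources used here. Read depth cannot be recovered from TPM, so values have no counting interval, and the number of tanks limits precision. Gene positions and sequences were not used here.

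Values were read with Python 3.11.15, pandas 2.3.3 and numpy 2.4.6 and drawn with matplotlib 3.10.9. The 2 pools of a tank were averaged as log2(TPM + 1), because diet was given to tanks, which gave 36 tank libraries beside 5 unfed pools. The tanks share 1 spawning group, so p-values measure the spread between tanks of this trial and, at BW0, between incubator pools. Genes reaching 1 TPM in 3 or more libraries were fitted in R 4.3.3 with limma 3.58.1 and an intensity trend, with 1 mean for each of 13 groups (28 residual degrees of freedom). Adjusted p is Benjamini-Hochberg over all genes tested in a comparison. The pseudocount of 1 understates changes of low genes. The tank links libraries across stages, and the correlation within tanks was 0.0364 with the tank as a block.

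Members were chosen by gene name. The members, classes, gene lists and tests were chosen with earlier results of these data known. Genes were named by a rule: up to 4 called members per direction and comparison with the largest difference and a mean of at least 5 TPM in the higher group, the 10 highest collagens, and all copies of 13 collagen names, of which those with the clearest levels are described. COL9A2 and COL9A3 (LABE_00037926), outside the rule, were named after their values were seen. Genes named from the synthesis, receptor and marker lists are examples outside the rule. Alternatives were other pseudocounts, filters, size factors, pools as replicates, the tank block, no trend, only the groups compared and leaving out tanks or pools.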

Additional observations from a re-analysis of the deposited data

Results flagged for a closer look

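In 13 of 104 groups checked, counting each class and all collagens, 1 pool stood far from the others of its stage and diet. Chance flags about 1 in 20 groups, but these groups share their pools and are not independent, so the number is not read against that share. The pool B7 R2 of BW7 plankton had 21700 TPM of all collagens against 17510 to 18920 in the other 5, and 15650 of fibrillar collagens against 12800 to 13640. The pool B5 R3 of BW2 plankton, the one closest to unfed larvae, had 1193 TPM of cartilage collagens against 407.5 to 661.0, 46.98 of transmembrane collagens against 12.13 to 19.52 and 45.06 of the remaining types against 10.94 to 16.97. The pool B8 R3 of BW2 control had 70.59 TPM of the remaining types against 30.94 to 44.26. The pool B7 R2 of BW4 plankton was low, with 147.7 TPM of basement membrane collagens against 204.3 to 221.5, 50.52 of transmembrane collagens against 99.45 to 103.8 and 53.84 of the remaining types against 89.81 to 107.6. The pool B6 R1 had 192.5 TPM of FACITs at BW4 control against 220.9 to 229.3, and 211.1 of basement membrane collagens at BW5 control against 163.4 to 177.1. The pool B9 R2 of BW5 plankton had 559.2 TPM of beaded filament collagens against 672.8 to 732.0, and B8 R1 of BW7 control had 56.08 of the remaining types against 62.98 to 66.09.

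The diet difference changed between stages, by limma's F test with Benjamini-Hochberg adjustment, in 20 collagens. The number fell to 14 with size factors and to 2 without tank B8. Adjusted p values in the cartilage class were 5.84e-05 for Col9a1 LABE_00014069, 0.00728 for COL9A3 LABE_00060755, 0.0102 for COL9A2 LABE_00053497, 0.0309 for Col2a1 LABE_00059853, 0.0327 for COL9A3 LABE_00037926, 0.0355 for COL2A1 LABE_00022018, 0.0374 for Col11a2 LABE_00065423 and 0.0418 for COL10A1 LABE_00049530. Among fibrillar genes they were 0.00432 for COL5A1 LABE_00074468, 0.0139 for Col1a2 LABE_00025931, 0.0189 for col1a2 LABE_00012020, 0.0272 for COL1A1 LABE_00010517 and 0.0482 for COL5A1 LABE_00069427. Among FACITs they were 6.97e-05 for COL21A1 LABE_00059096, 0.012 for col21a1 LABE_00087879, 0.0327 for Col12a1 LABE_00066332 and 0.043 for Col12a1 LABE_00047186. The others were COL6A1 LABE_00003851 at 0.0211, COL18A1 LABE_00021471 at 0.0215 and Col28a1 LABE_00037998 at 0.0314.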

How the results depend on the processing

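Of the counts of called collagens, 278 recomputed values stayed within 1.5 times the count reported and 25 did not. The 52 collagens lower with plankton at BW2 became 49 with size factors, all among the 52, 42 with only the groups compared, and 62 without pools whose titles are written with a space. When 1 tank was left out the count was 40 to 51, and 39 genes were called whichever tank was left out. The tank as a block left it at 52, and the block moved no count by over 1.5 times.

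The single call at BW4 became 0 with a pseudocount of 0.1 and 5 with only the groups compared, and 0 to 1 with 1 tank left out. That at BW5 became 0 with only the groups compared and 0 to 1 with 1 tank left out. From BW0 to BW2, 72 calls became 43 with size factors and 30 without the pools with spaced titles, which leaves 1 unfed pool, and 66 to 78 with 1 tank or pool left out. Against unfed larvae, 38 calls in control tanks became 11 with size factors, 19 with only the groups compared, 6 without the spaced titles and 12 to 45 with 1 tank or pool left out, with 12 without B10 and 18 without B6. The 20 calls for a diet difference that changed between stages became 41 with each pool as a replicate, 31 without the spaced titles, 39 without the 9 pools closest to another group and 2 to 13 with 1 tank left out: 13 without B5 or B6, 8 without B9, 7 without B10, 4 without B7 and 2 without B8. With size factors those 20 calls became 14 of 93, against 3557 of 22021 genes. The cause was not tested in any of these.

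With 1 tank left out, the count was 71 to 75 for BW2 to BW3, 30 to 37 for BW3 to BW4, 48 to 56 for BW4 to BW5, 51 to 58 for BW5 to BW6, 38 to 45 for BW6 to BW7, 78 to 81 for BW2 to BW7 and 69 to 79 for plankton tanks against unfed larvae. Among the named genes 202 recomputed values lost the call and 65 gained it. Another 9450 were counted as the same, which includes any sign change of a gene not called in the reported comparison. Of the called values 4 changed sign, all with size factors. From BW0 to BW2 these were COL6A2 LABE_00003854 (0.19, reported as -0.33) and Col4a2 LABE_00060439 (0.002, reported as -0.47). From BW2 to BW3 they were COL9A1 LABE_00036557 (-0.02, reported as 0.56) and Col4a1 LABE_00055518 (-0.30, reported as 0.28). With 5 tanks the sign-flip test of the ratios cannot pass the threshold, its smallest p being 0.0625, so leaving out a tank says nothing about them. The depth behind these values is unknown.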
